A study of Drosophila melanogaster with 35 samples.

Results

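Mitochondrial ribosomal proteins were represented by 64 genes among the 10844 genes measured. These were all genes whose current symbol begins with mRpL or mRpS and that a probe set of the array measures alone, 43 of the large subunit (mRpL) and 21 of the small subunit (mRpS), through 66 probe sets. The reference gene table lists 73 such symbols, and the other 9, namely mRpL27, mRpL34, mRpL37, mRpL53, mRpS5, mRpS10, mRpS14, mRpS21 and mRpS23, had no probe set to themselves and were not analysed here. By their numbering alone, 36 members (26 large and 10 small) were counted as having a counterpart in the bacterial ribosome. The other 28 (17 large and 11 small) were counted as mitochondria-specific. No sequences were compared, so the numbering can misplace single genes, and some of the 28 may have a bacterial counterpart. The genes lie on chromosome arms 2L (10 genes), 2R (10), 3L (16), 3R (18) and X (10).

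The mitochondrial ribosome translates the few messages of the mitochondrial genome, which encode core subunits of the respiratory chain and of the ATP synthase. Its RNAs are mitochondrial, but all of its proteins are encoded in the nucleus, made in the cytosol and imported, so its assembly draws on transcription in both compartments. The large subunit holds the peptidyl transferase centre and the exit tunnel, and the small subunit holds the decoding centre where the message is read.

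The arrays, Affymetrix DrosGenome1 GeneChips, measured RNA of whole adult male flies, 25 flies per sample and 1 array per sample, with 35 arrays in 8 groups. In the aging study, Old flies (61 days, n = 4) and Hyperoxia flies (100% oxygen for 5 days, 8 days old at the end by the labels, n = 6) were set against Young controls (10 days, n = 6). In the stress study, Heat stress flies (9 days, 37 degrees C for 5.5 hours in 1% sucrose vials, n = 3), Ionizing radiation flies (11 days, 5666 rads per hour for 16 hours and then 2 days in sucrose vials, n = 4), Hydrogen peroxide flies (11 days, 3% hydrogen peroxide in sucrose vials for 2 days, n = 4) and Sugar flies (11 days, sucrose vials for 2 days, n = 4) were set against Stress controls (9 days, n = 4). Every fly, controls included, was a male from a cross of Oregon-R with a w[1118] stock that holds the transgene P{w+ rtTA}(3)[E2] over the balancer TM3, and had inherited the transgene and not the balancer. By the labels, each array of the stress treatments and of Sugar came from its own vial of flies. The irradiated, peroxide-fed and Sugar flies spent 2 days on sucrose before RNA was taken, so the Sugar group is their match for age and food.

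Signals are given on the linear scale after the arrays were brought to a common distribution. Log2 fold changes are differences of the mean log2(signal + 34.09), a scale that understates changes of dim genes, and they are followed by their standard errors (SE). A gene is called when it passed the nested F test of limma at a false discovery rate of 1% and changed by at least 1.5-fold, and adjusted p-values are from limma's moderated test for 1 comparison, adjusted over all 13966 probe sets. The nested F test judges a gene over all comparisons first, so a call can stand beside an adjusted p above 0.01, and a small adjusted p can stand without a call. Whether the arrays of 2 groups overlapped was read for members only, and no share over all genes was taken. It comes from the same values as the calls, so it describes the arrays and is no further test. The deposited signals of 31 arrays had been scaled to a trimmed mean of 1000, and those of the 4 Sugar arrays lay at 107 to 167. The 3' to 5' signal ratio of the actin control, a sign of RNA integrity, was 283 on Old replicate 2 and 7.44 on Ionizing radiation replicate 1, against 1.48 to 7.09 on the other 33 arrays. Within those, all 4 Sugar arrays, at 2.65 to 3.51, lay above the Stress controls at 1.48 to 1.99. Heat stress arrays were at 1.68 to 1.99, Hydrogen peroxide arrays at 1.88 to 2.34 and Young controls at 2.73 to 7.09. The part of RNA integrity in comparisons between groups was not tested. Because the RNA came from whole flies, fewer cells of a type and less RNA per cell cannot be told apart in any of these values.

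Few of the 64 genes were called, and most calls were decreases. Some members changed by 1.5-fold without a call and are not counted here. Calls were made for 13 members in at least 1 of the 6 comparisons, 20.3% of the members, beside 38.7% of all genes measured. There were 15 calls down and 3 calls up. The called members were 11 of 43 large subunit genes (25.6%) and 2 of 21 small subunit genes (9.52%). Only mRpL17, mRpL20 and mRpL21 were called in more than 1 comparison.

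**Figure D1:**
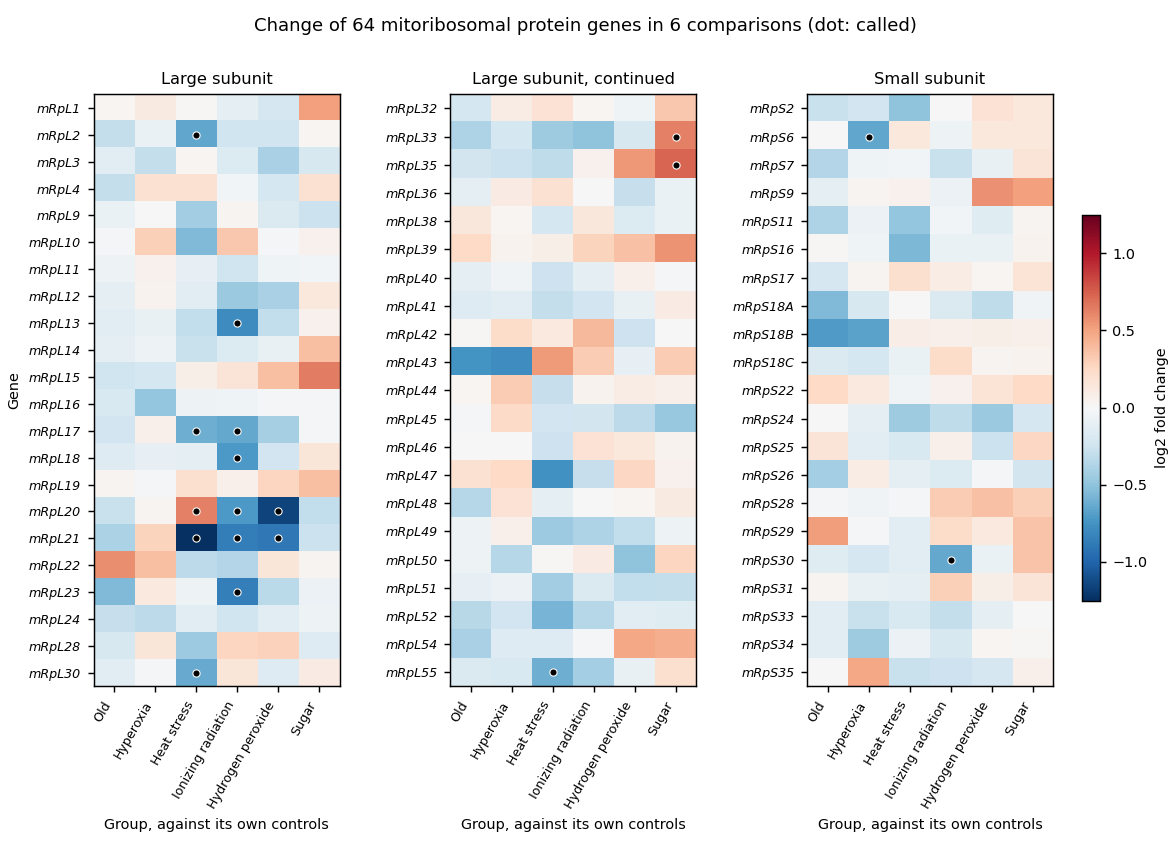
Colour gives the log2 fold change of each of the 64 members (rows, large subunit in the left and middle panels and small subunit in the right panel) in each comparison (columns), blue for lower and red for higher than the controls of the same study, and black dots mark calls. The Old column has no dot, and the row of mRpL20 is red under heat and blue under radiation and peroxide.

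Of the proteins named for the small subunit, 2 have another place in human mitochondrial ribosomes, where those called S18A and S30 lie in the large subunit. With mRpS18A and mRpS30 counted there, the called members were 12 of 45 large and 1 of 19 small subunit genes.

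Subunit medians lay between -0.24 and 0.13 in all 6 comparisons. In Old flies the median log2 fold change was -0.13 over the large and -0.14 over the small subunit genes, beside 0.03 over all genes measured. Under heat it was -0.24 and -0.11 (all genes 0.00), under ionizing radiation -0.13 and -0.06 (all genes 0.03), and under hydrogen peroxide -0.14 and 0.02 (all genes 0.05). Hyperoxia gave 0.00 and -0.09 (all genes 0.02), and Sugar gave 0.05 and 0.13 (all genes 0.02).

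Members below 0 made up 35 of 43 large and 14 of 21 small subunit genes in Old flies, 31 and 17 under heat, 28 and 13 under radiation, and 31 and 10 under peroxide. Sugar was the group in which most members stood above 0, with 18 large and 4 small subunit genes below it. Among all genes measured, the share below 0 was 47.4% in Old, 49.5% under heat, 47.0% under radiation, 45.6% under peroxide and 47.7% in Sugar flies. In Hyperoxia 21 large and 16 small subunit genes lay below 0, beside 47.8% of all genes.

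**Figure D2:**
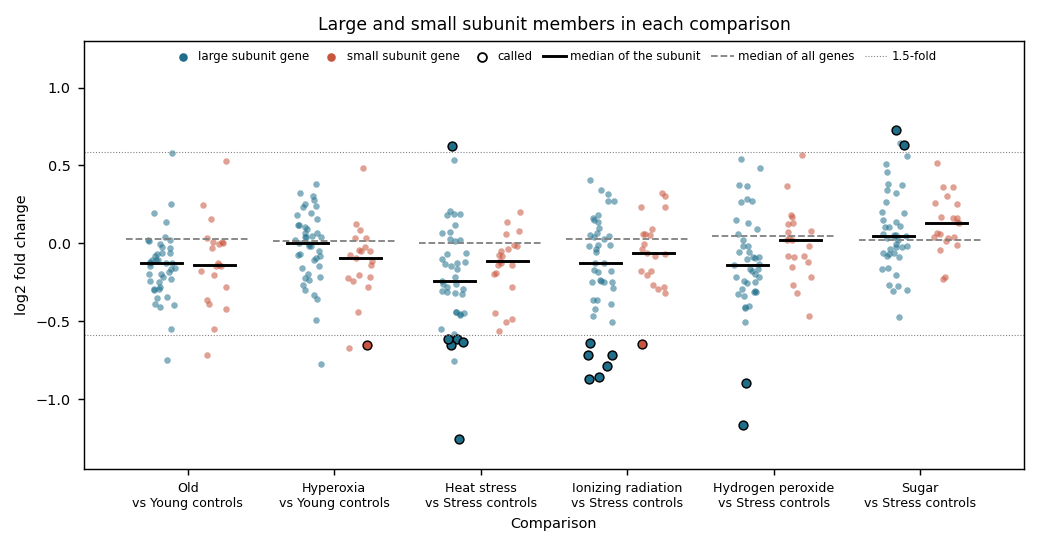
Each point is the log2 fold change of 1 member in the comparison named on the horizontal axis, with large subunit genes on the left and small subunit genes on the right of each pair and calls outlined in black. Solid bars are subunit medians, dashed lines the median of all genes and dotted lines 1.5-fold, and the medians lie between -0.24 and 0.13.

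The order of the subunits was also read array by array, as the median difference of each subunit from the mean of its own controls. The large subunit median was below the small one on 3 of 3 Heat stress, 4 of 4 Hydrogen peroxide, 3 of 4 Ionizing radiation and 3 of 4 Sugar arrays, and on 2 of 4 arrays of the Stress controls themselves. It was below on 2 of 4 Old and 2 of 6 Hyperoxia arrays, and on 2 of 6 arrays of the Young controls. The gap, large minus small, averaged -0.10 ± 0.03 under heat (SD, n = 3) and -0.08 ± 0.04 under peroxide (SD, n = 4), against 0.00 ± 0.04 in Stress controls (SD, n = 4), and it was 0.10 ± 0.10 in Hyperoxia flies (SD, n = 6), against 0.02 ± 0.06 in Young controls (SD, n = 6). The heat gap ran between -0.13 and -0.07 and lay outside the range of the controls, -0.03 to 0.04, whereas the peroxide gap ran between -0.12 and -0.02 and overlapped it. These gaps are descriptions of the member lists and were not tested. Each control array is part of the mean it was compared with, which narrows the range of the controls. All arrays of a study share the same control mean, so their counts are not independent. Under peroxide the small subunit medians of single arrays lay between -0.065 and -0.0027, whereas the median of the fold changes was 0.02.

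Ionizing radiation replicate 1 stood apart from the other irradiated arrays. Its medians were 0.14 for the large and 0.20 for the small subunit genes, whereas the lowest of that group were -0.21 and -0.16. It was the irradiated array with the high actin ratio given above, and the part of RNA quality in its values was not tested. Without it, the medians of the fold changes under radiation were nearly equal, -0.17 over the large and -0.18 over the small subunit genes. Array by array, the gap of large minus small was -0.12 on replicate 2, 0.02 on replicate 3 and -0.03 on replicate 4. Old replicate 2, with the actin ratio of 283, was at -0.04 for the large and 0.03 for the small subunit genes, against -0.18 to -0.12 and -0.23 to -0.11 on the other Old arrays, and without it the medians in Old flies were -0.16 and -0.18. The small subunit median moved with single arrays in other groups. It was -0.02 under heat without Heat stress replicate 1 and -0.05 in Old flies without Old replicate 3. It was 0.06 in Sugar flies without Sugar replicate 2, and under peroxide it lay between -0.06 and 0.02 with any 1 array left out.

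**Figure D3:**
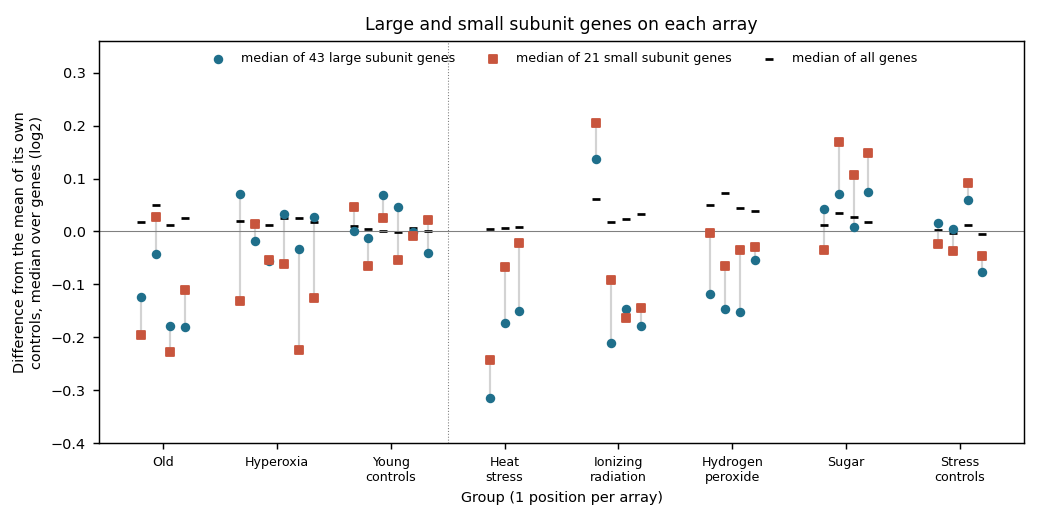
For each of the 35 arrays, the circle is the median log2 difference of the 43 large subunit genes from the mean of their own control arrays, the square the same for the 21 small subunit genes, and the dash that of all genes. Groups run along the horizontal axis with each study's controls last, and the large subunit circles of the heat arrays lie between -0.31 and -0.15, all below those of the Stress controls.

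No member passed the test with a change of 1.5-fold in Old flies. None of the 64 genes was called down or up in Old against Young controls, beside 9.40% of all genes called down and 5.48% called up by the same limma test. The study itself reported genes of mitochondrial ribosomal proteins among those down-regulated in aging, from signals computed by another model. The part of the signal model in that difference was not tested. At an unadjusted p under 0.05, 13 members were lower and 1 was higher (all genes 19.3% and 17.4%). The 95% interval of the change lay within 1.5-fold for 47 of the 64 members and reached a decrease of 1.5-fold for 14.

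The largest well-measured decreases with age were in mRpS18A, a counterpart of bacterial S18, and mRpL23, whose bacterial counterpart lies at the mouth of the exit tunnel and is where nascent-chain factors dock. Their array values are shown because their changes stood out once the values were seen. mRpS18A had signals of 788, 985, 862 and 834 in Old flies, against a lowest of 1215, a median of 1284 and a highest of 1347 in Young controls. All 4 Old arrays lay below all 6 young arrays, at a log2 fold change of -0.55 (SE 0.09, adjusted p = 1.8e-05). mRpL23 had 1437, 1286, 1390 and 1572 in Old flies, against a lowest of 1926, a median of 2128 and a highest of 2262 in Young controls. The ranges again did not overlap, and the log2 fold change was -0.55 (SE 0.10, adjusted p = 8.8e-05).

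Both genes fell just short of the 1.5-fold limit of 0.58 on the log2 scale. The number of members called down with age was 1, mRpS18A, when Old replicate 2 was left out, the array with the high actin ratio, and 1, mRpL23, when Old replicate 4 was left out. Leaving out Old replicate 4 also brought 1 call up, mRpS29.

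Beside them, the small subunit genes mRpS26, mRpS11 and mRpS7 were lower in Old flies, by -0.42, -0.39 and -0.36 on the log2 scale, with adjusted p-values of 0.0033, 0.0055 and 0.0022. The bacterial counterpart of mRpS7 nucleates the head of the small subunit and that of mRpS11 lines the exit path of the message. mRpS29, the counterpart of the human GTP-binding protein DAP3, went the other way, with 1692, 1634, 1336 and 1238 in Old flies, against a lowest of 819, a median of 1013 and a highest of 1233 in Young controls. Every Old value lay above every young value, at a log2 fold change of 0.53 (SE 0.15, adjusted p = 0.0088).

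The widest decreases by size, -0.75 in mRpL43 and -0.71 in mRpS18B, carried wide errors, with SEs of 0.42 and 0.42 and adjusted p-values of 0.22 and 0.24. mRpS18B is the dimmest member of its subunit and mRpL43 had 885, 807, 957 and 155 in Old flies, against 773, 1022 and 1480 (lowest, median and highest) in Young controls, so that 1 Old array stood far below the rest. The largest value above 0 was that of mRpL22, 0.58 (SE 0.29, adjusted p = 0.16), which was not called. mRpL46 and mRpS24 lay nearest to no change with age. mRpL46 had 577, 674, 665 and 609.9 in Old flies, against 555, 643 and 718 (lowest, median and highest) in Young controls, a log2 fold change of 0.00 (95% interval -0.21 to 0.21). mRpS24 had 1228, 1847, 1146 and 1701 in Old flies, against 1206, 1471 and 1659 in Young controls, also 0.00 (-0.28 to 0.28).

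**Figure D4:**
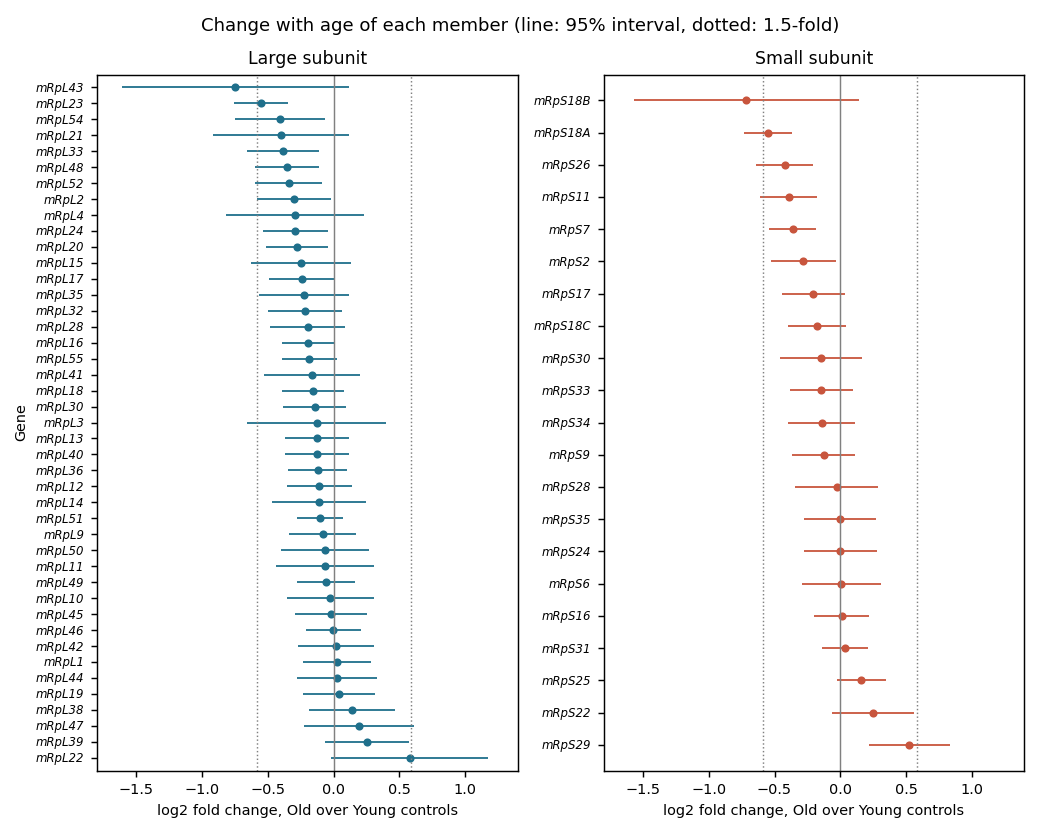
Points are the log2 fold changes of the members in Old flies over Young controls, sorted within the large (left) and small (right) subunit, with horizontal lines for 95% intervals and dotted lines at 1.5-fold. Most points lie left of 0, and no interval lies wholly beyond a 1.5-fold decrease.

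Transcripts of other tissues moved in the same comparison. The summed signal of 8 testis markers was 82558 to 102504 in Old flies, against 141287 to 156605 in Young controls, with 6 of the 8 called down. That of 5 midgut markers was 54177 to 78127 in Old flies, against 100192 to 119628 in Young controls, with 3 of the 5 called down, and that of 10 accessory gland genes was 89937 to 96088 in Old flies, against 114147 to 121527 in Young controls, with 3 called down and 1 up. The 6 flight muscle genes summed to 40469 to 42939 in Old flies, against 38009 to 41973 in Young controls, but 2 of them were called down (fln at -2.54 and TpnC4 at -1.78) and 1 up (Act88F at 1.89). The part of these tissues in the members' values was not tested.

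In Hyperoxia flies 1 member was called down, mRpS6, whose bacterial counterpart pairs with S18 on the platform of the small subunit. That is 1 of 64 genes called down and none called up, beside 4.79% and 3.44% of all genes by limma, and at an unadjusted p under 0.05 there were 12 lower and 3 higher members (all genes 13.3% and 14.8%). mRpS6 had a lowest signal of 465, a median of 749 and a highest of 905 in Hyperoxia flies, against 1069, 1156 and 1269 in Young controls. The groups did not overlap, at a log2 fold change of -0.65 (SE 0.13, adjusted p = 0.00050). Without Hyperoxia replicate 1, the lowest array, the change was -0.53 (adjusted p = 0.0020) and the call was lost. Decreases of -0.78 in mRpL43 and -0.67 in mRpS18B were larger in size but were not called. mRpL43 ran between 204 and 964 in Hyperoxia flies, against 773 to 1480 in Young controls.

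Below the fold limit, mRpL16 was lower in Hyperoxia flies by -0.49 (adjusted p = 0.00010) and mRpS35 was higher by 0.49 (adjusted p = 0.0037). The bacterial counterpart of mRpL16 sits near the peptidyl transferase centre, and mRpS35 belongs to mitochondrial ribosomes alone. Old and Hyperoxia flies were compared directly, since both had been set against the same Young controls. The difference reached an adjusted p under 0.01 for 6 members that were lower and 2 that were higher in Old flies, beside 11.7% and 7.89% of all genes. It reached 1.5-fold for mRpL23 (-0.67, SE 0.10, adjusted p = 4.9e-06) and mRpS6 (0.66, SE 0.15, adjusted p = 0.00095), 1 member down and 1 up, beside 9.39% and 5.36% of all genes. The other 6 stayed under 1.5-fold, with mRpL48 (-0.53), mRpS26 (-0.51), mRpS35 (-0.49), mRpS18A (-0.35) and mRpS7 (-0.31) lower and mRpS29 (0.55) higher in Old flies. Beside these values, the summed signal of the 5 midgut markers was 52527 to 65167 in Hyperoxia flies, against 100192 to 119628 in Young controls (5 of 5 called down), that of the 10 accessory gland markers was 100848 to 110742 in Hyperoxia flies, against 114147 to 121527 in Young controls (7 of 10 called down), and that of the testis markers was 173935 to 184088 in Hyperoxia flies, against 141287 to 156605 in Young controls (none called). Their part in the members' values was not tested.

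Under heat 5 members fell and 1 rose, all of the large subunit, beside 8.06% of all genes called down and 5.97% called up. At an unadjusted p under 0.05, 19 members were lower and 1 was higher (all genes 17.2% and 16.2%). mRpL21, whose bacterial counterpart binds the large ribosomal RNA next to L20, had 219.9, 65.0 and 391 in Heat stress flies, against 458, 529, 489 and 491 in Stress controls. All heat values were below the controls but they ran between 65.0 and 391, and the log2 fold change was -1.25 (SE 0.30, adjusted p = 0.0026). Without Heat stress replicate 2, the lowest array, it was -0.68 (adjusted p = 0.081).

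mRpL2, whose bacterial counterpart helps form the peptidyl transferase centre, had 303, 327 and 396 in Heat stress flies, against 522, 565, 540.4 and 589 in Stress controls (log2 fold change -0.65, SE 0.16, adjusted p = 0.0038). mRpL30, also with a bacterial counterpart, had 335, 486 and 473 in Heat stress flies, against 611, 716, 671 and 726 in Stress controls (-0.63, SE 0.14, adjusted p = 0.0010). mRpL17, whose bacterial counterpart lies near the exit tunnel, had 391, 638 and 506 in Heat stress flies, against 788, 769, 822 and 772 in Stress controls (-0.62, SE 0.14, adjusted p = 0.0019). In each of the 3 the groups did not overlap. The gene of mRpL55, a protein of animal mitochondrial ribosomes with no bacterial counterpart, fell by 0.61 on the log2 scale (SE 0.12, adjusted p = 0.00036).

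mRpL20, whose bacterial counterpart is needed early in assembly of the large subunit, rose under heat. Its signals were 819, 1076 and 1142 in Heat stress flies, against 652, 575, 651 and 674 in Stress controls, a log2 fold change of 0.63 (SE 0.14, adjusted p = 0.0011) with no overlap. Apart from mRpL21, the calls under heat lay between -0.65 and -0.61 or, for mRpL20, at 0.63. No call under heat remained when the fit held only the 2 groups compared (adjusted p-values 0.010 to 0.073), only that of mRpL21 with a pseudocount at the 25th percentile, and only 2 calls down beside that of mRpL20 with either other scaling (mRpL2 and mRpL21 by the trimmed mean, mRpL21 and mRpL30 by the median). Leaving out Heat stress replicate 1 gave 3 calls down (mRpL21, mRpL49 and mRpS16), with mRpL2 at -0.58, mRpL55 at -0.54, mRpL30 at -0.47 and mRpL17 at -0.45, and leaving out Heat stress replicate 3 gave 8. The call of mRpL2 was also lost without Heat stress replicate 2 (-0.63) or Stress controls replicate 2 (-0.64) or 4 (-0.62), and that of mRpL55 without Stress controls replicate 3 (-0.55). The call of mRpL20 was lost without Heat stress replicate 2 (0.58), Heat stress replicate 3 (0.54) or Stress controls replicate 2 (0.58).

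The small subunit had no call under heat. Of its members, mRpS16 (-0.56, adjusted p = 0.00089), mRpS2 (-0.50, adjusted p = 0.011) and mRpS11 (-0.48, adjusted p = 0.0049) had no overlap with the controls and stayed under 1.5-fold. Among large subunit genes short of a call, mRpL52 was at -0.58 (SE 0.15, adjusted p = 0.0041), at the limit itself, and mRpL47 at -0.76 (SE 0.24, adjusted p = 0.025). The midgut markers summed to 20666 to 23719 in Heat stress flies, against 77898 to 96547 in Stress controls (4 of 5 called down), the accessory gland genes to 73027 to 76002 in Heat stress flies, against 91185 to 100286 in Stress controls (3 of 10 called down), and the flight muscle genes to 46135 to 48086 in Heat stress flies, against 41229 to 44490 in Stress controls (none called). The testis genes summed to 146572 to 172845 in Heat stress flies, against 124861 to 142467 in Stress controls (1 of 8 called up). Their part in the members' values was not tested.

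Under ionizing radiation 7 members fell, 6 large and 1 small, and none rose, beside 8.23% of all genes called down and 7.80% called up by limma. At an unadjusted p under 0.05, 15 members were lower and 2 were higher (all genes 16.5% and 18.4%). mRpL23 had 1237, 911, 799 and 835 in irradiated flies, against 1644, 1797, 1808 and 1626 in Stress controls. The groups did not overlap, and the log2 fold change was -0.86 (SE 0.11, adjusted p = 2.8e-07).

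mRpL13, also with a bacterial counterpart, had 963, 779, 689 and 696 in irradiated flies, against 1489, 1312, 1409 and 1251 in Stress controls (-0.79, SE 0.13, adjusted p = 1.8e-05). mRpL20, which rose under heat, had 444.6, 342, 369 and 347 in irradiated flies, against 652, 575, 651 and 674 in Stress controls (-0.72, SE 0.13, adjusted p = 5.2e-05). mRpL21 had 278, 239, 184 and 333 in irradiated flies, against 458, 529, 489 and 491 in Stress controls (-0.87, SE 0.28, adjusted p = 0.020). None of the 3 overlapped its controls, and in each of mRpL13, mRpL20 and mRpL23 replicate 1 was the highest of the irradiated arrays.

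The other calls were mRpL18, whose bacterial counterpart carries the 5S ribosomal RNA (-0.72, SE 0.13, adjusted p = 4.5e-05), mRpL17 (-0.64, SE 0.13, adjusted p = 0.00040) and mRpS30 (-0.64, SE 0.17, adjusted p = 0.0040). The calls of mRpL13, mRpL18, mRpL20, mRpL23 and mRpS30 were kept whichever array of the comparison was left out. Under the processing alternatives, those of mRpL13, mRpL20 and mRpL23 were kept in all 11, that of mRpL18 was lost with only the 2 groups in the fit, and that of mRpS30 was lost under either other scaling (-0.58 in each), with the pseudocount at the 25th percentile (-0.58) and without the Sugar arrays (-0.64). That of mRpL17 was lost under either other scaling, with that pseudocount and with only the 2 groups in the fit. Leaving out Ionizing radiation replicate 3 also ended the call of mRpL17 (-0.56). That of mRpL21, with the largest SE of the 7, was lost in 5 of the 11 alternatives and in 7 of 8 fits with 1 array left out, with an adjusted p of up to 0.081, and of these 8 it held only without Ionizing radiation replicate 4.

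Under hydrogen peroxide 2 members fell, both large, and none rose, beside 9.75% and 8.95% of all genes by limma. At an unadjusted p under 0.05, 14 members were lower and 5 were higher (all genes 18.7% and 21.6%). mRpL20 had 279.6, 192, 288 and 319.5 in peroxide-fed flies, against 652, 575, 651 and 674 in Stress controls. The groups lay far apart, and the log2 fold change of -1.16 (SE 0.13, adjusted p = 1.1e-08) had a 95% interval of -1.42 to -0.90. mRpL21 had 237, 241, 441 and 146 in peroxide-fed flies, against 458, 529, 489 and 491 in Stress controls (-0.89, SE 0.28, adjusted p = 0.014). Its highest peroxide value, 441, came close to the lowest control, 458, and the call was lost in 5 of 11 processing alternatives and in 7 of 8 fits with 1 array left out, all but that without Hydrogen peroxide replicate 3, where it was -1.14.

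Under peroxide some members of both subunits stood higher, short of 1.5-fold. They were mRpS9, whose bacterial counterpart touches the transfer RNA in the peptidyl site (0.57, SE 0.13, adjusted p = 0.00089), mRpL35 (0.54, SE 0.18, adjusted p = 0.024) and mRpL54 (0.48, SE 0.18, adjusted p = 0.045). mRpS9, mRpL35 or mRpL54 was called up in some fits with 1 array left out: 2 members without Stress controls replicate 1 or 4, and 1 without Stress controls replicate 3 or Hydrogen peroxide replicate 3 or 4. Among the lower members were mRpL50 (-0.50, adjusted p = 0.032), mRpS24 (-0.46, adjusted p = 0.018), mRpL17 (-0.42, adjusted p = 0.017) and mRpL12 (-0.41, adjusted p = 0.019), the last a counterpart of the bacterial stalk protein that recruits translation factors.

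Markers of other tissues also moved in the irradiated and peroxide-fed flies. The summed signal of 10 accessory gland genes was 33805 to 36167 in irradiated and 28985 to 39646 in peroxide-fed flies, against 91185 to 100286 in Stress controls. That of 5 midgut genes was 18389 to 27215 in irradiated and 4542 to 8173 in peroxide-fed flies, against 77898 to 96547 in Stress controls. That of 6 flight muscle genes was 31247 to 41475 in irradiated and 29876 to 34946 in peroxide-fed flies, against 41229 to 44490 in Stress controls. In both groups 9 of the 10 accessory gland genes, 5 of the 5 midgut genes and 3 of the 6 flight muscle genes were called down, and Act88F of the flight muscle genes was called up in irradiated flies (1.50). The testis genes did not fall. The summed signal of 8 testis genes was 155705 to 182208 in irradiated and 137303 to 151877 in peroxide-fed flies, against 124861 to 142467 in Stress controls, with none called. No gene of these lists was below the pseudocount on every array, and the part of tissue composition in the members' values was not tested.

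In Sugar flies 2 members rose, both large, and none fell, beside 2.89% and 2.18% of all genes by limma. At an unadjusted p under 0.05, 12 members were higher and 3 were lower (all genes 13.2% and 10.5%). mRpL35 had 876, 946, 646 and 778 in Sugar flies, against 531, 407, 434 and 527 in Stress controls (0.73, SE 0.18, adjusted p = 0.010). mRpL33 had 1501, 1468, 1354 and 1255 in Sugar flies, against 945, 768, 851 and 1004 in Stress controls (0.63, SE 0.15, adjusted p = 0.0058). Neither overlapped its controls, and both are counterparts of small bacterial proteins of the large subunit. Without Stress controls replicate 2, mRpL33 was at 0.56 and lost its call.

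Below the fold limit, mRpS9 (0.52, adjusted p = 0.0091) and mRpL1, whose bacterial counterpart forms the stalk that releases spent transfer RNA (0.51, adjusted p = 0.017), were also higher in Sugar flies. mRpL15 (0.65, SE 0.21, adjusted p = 0.042) and mRpL39 (0.56, SE 0.17, adjusted p = 0.035) did not overlap their controls and were not called. The Sugar arrays had been scaled to a lower mean than all others before deposit, as given above. Their actin ratios, also given there, lay above those of the Stress controls, and the part of RNA integrity in the Sugar values was not tested. The same 2 genes were called when all arrays were scaled to a common trimmed mean or to a common median in place of a common distribution, but the call of mRpL35 was lost when the fit held only the 2 groups compared (adjusted p = 0.014). The accessory gland genes summed to 70742 to 81617 in Sugar flies, against 91185 to 100286 in Stress controls (5 of 10 called down), and the midgut genes to 43268 to 51112 in Sugar flies, against 77898 to 96547 in Stress controls (3 of 5 called down). The testis genes summed to 106324 to 122279 in Sugar flies, against 124861 to 142467 in Stress controls (none called). The flight muscle genes summed to 34468 to 38637 in Sugar flies, against 41229 to 44490 in Stress controls (none called). The part of these tissues in the members' values was not tested.

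The irradiated flies were also set against the Sugar flies, their match for food and age. At an adjusted p under 0.01 and 1.5-fold, 11 members were lower and none was higher, beside 8.19% and 6.27% of all genes. They were 9 large and 2 small subunit genes, led by mRpL33 (-1.13, SE 0.15, adjusted p = 4.2e-07), mRpS30 (-1.004, SE 0.17, adjusted p = 2.4e-05), mRpL18 (-0.87, SE 0.13, adjusted p = 2.6e-06), mRpL13 (-0.84, SE 0.13, adjusted p = 7.6e-06) and mRpL23 (-0.79, SE 0.11, adjusted p = 1.5e-06). The other 6 were mRpL1, mRpL12, mRpL17, mRpL35, mRpL55 and mRpS9, between -0.67 and -0.59. Under radiation mRpL1, mRpL12, mRpL33, mRpL35, mRpL55 and mRpS9 were not called against the Stress controls. mRpL1 was at 435 to 651 in irradiated flies, against 494 to 698 in Stress controls. mRpL35 was at 351 to 808 in irradiated flies, against 407 to 531 in Stress controls. The deposited scale and actin ratios of the Sugar arrays, given above, apply here too, and their part was not tested.

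For mRpL33 the signals were 819.6, 579.8, 526.3 and 573 in irradiated flies, against 1501, 1468, 1354 and 1255 in Sugar flies. The Stress controls, at 768 to 1004, lay below all Sugar values and overlapped the highest irradiated value. For mRpS30 they were 502, 447, 519 and 514 in irradiated flies, against 1066, 964, 1208 and 895 in Sugar flies, with the Stress controls at 727 to 847 between them.

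Peroxide-fed flies had 4 members lower and none higher than Sugar flies by the same rule, beside 9.11% and 6.49% of all genes. They were mRpL20 (-0.86, SE 0.13, adjusted p = 3.6e-06), mRpL33 (-0.83, SE 0.15, adjusted p = 5.3e-05), mRpL50 (-0.77, SE 0.18, adjusted p = 0.0013) and mRpL1 (-0.72, SE 0.14, adjusted p = 0.00014). mRpL20 was thus lower than both the Stress controls and the Sugar flies under peroxide. By contrast, mRpL33, mRpL50 and mRpL1 were not called against the Stress controls and overlapped them. In peroxide-fed flies mRpL33 was at 634 to 910, against 768 to 1004 in Stress controls. mRpL50 was at 422 to 531, against 428 to 836, and mRpL1 at 431 to 640, against 494 to 698. mRpL21 was not among the members lower than in Sugar flies, and its Sugar arrays were at 392, 386, 377 and 454.

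Whether a member's change with age differed from its change under a stress was tested as the difference between the fold change in Old flies and that in the stressed flies, each against its own controls. Against heat, 3 members differed at an adjusted p under 0.01, 1 higher and 2 lower in aging, beside 9.02% and 12.0% of all genes. These were mRpS16 (0.57, SE 0.16, adjusted p = 0.0066), mRpL20 (-0.91, SE 0.18, adjusted p = 0.00024) and mRpS18A (-0.54, SE 0.14, adjusted p = 0.0035). Against radiation only mRpL13 differed (0.66, SE 0.18, adjusted p = 0.0072), 1 higher and none lower, beside 5.67% and 7.25% of all genes.

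Against peroxide, mRpL20 differed upward (0.88, SE 0.17, adjusted p = 0.00019) and mRpS9 (-0.69, SE 0.17, adjusted p = 0.0028) and mRpL54 (-0.89, SE 0.25, adjusted p = 0.0062) downward, 1 and 2 members beside 9.83% and 12.0% of all genes. Against Sugar, 4 members differed downward and none upward, beside 6.44% and 3.40% of all genes. They were mRpL33 (-1.01, SE 0.20, adjusted p = 0.00052), mRpL35 (-0.95, SE 0.25, adjusted p = 0.0074), mRpS7 (-0.52, SE 0.13, adjusted p = 0.0055) and mRpS18A (-0.51, SE 0.13, adjusted p = 0.0080). The aging and the stress arrays came from separate studies, and a difference between the studies that touches 1 arm alone cannot be told apart from these differences.

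The members with most calls were mRpL20 and mRpL21, with 3 each, followed across all groups here. mRpL20 had 558, 634, 468 and 565 in Old flies and a lowest of 657, a median of 690 and a highest of 789 in Hyperoxia flies, against 603, 673 and 759 in Young controls, and neither comparison was called (log2 fold changes -0.28 and 0.04). In Sugar flies it had 486, 509, 438 and 615 (-0.31, adjusted p = 0.14). mRpL20 was thus the only member called in opposite directions, up under heat and down under radiation and peroxide. The 3 comparisons share the Stress controls, whose own values of mRpL20 ran between 575 and 674.

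mRpL21 had 339, 629.9, 517 and 409.9 in Old flies and a lowest of 596, a median of 749 and a highest of 956 in Hyperoxia flies, against 525, 628 and 674 in Young controls. Its changes of -0.40 and 0.28 there had SEs of 0.25 and 0.23 and were not called. The 4 Stress controls lay within 458 to 529, a narrower range than that of the heat, irradiated or peroxide-fed arrays. mRpL23 was low in Old and irradiated flies and lay near its controls under heat, with 1617, 1705 and 1604 in Heat stress flies, against 1626 to 1808 in Stress controls (-0.06, 95% interval -0.31 to 0.18). In peroxide-fed flies mRpL23 ran between 1209 and 1632, mostly below the same controls, and was not called.

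**Figure D5:**
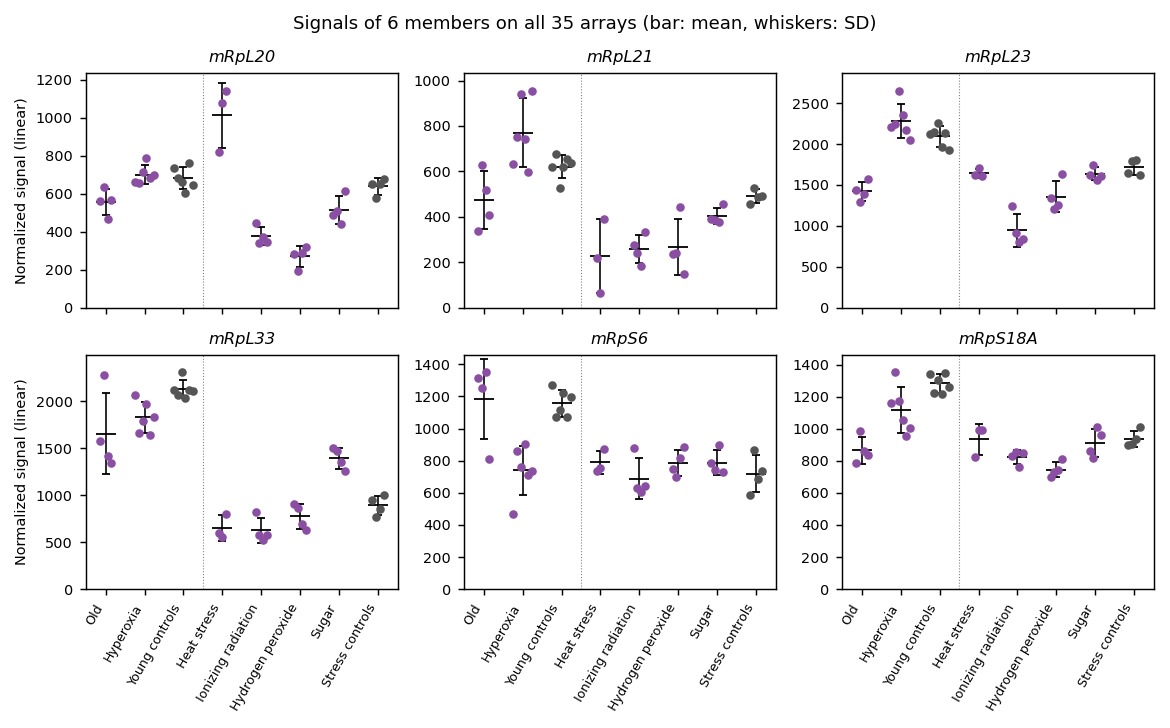
Normalized signals (linear scale from 0) of mRpL20, mRpL21, mRpL23, mRpL33, mRpS6 and mRpS18A on all 35 arrays, with groups along the horizontal axis, each study's controls in grey at the end of its block, horizontal bars at group means and whiskers for the SD. mRpL20 lies at 819 to 1142 under heat and at 192 to 319.5 under peroxide, on either side of its controls at 575 to 674.

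Members counted by their number as having a bacterial counterpart were set beside those counted as mitochondria-specific, a split that can misplace single genes. In Old flies the median was -0.20 over the 36 with a counterpart, 31 of them below 0, and -0.04 over the 28 mitochondria-specific members, 18 of them below 0. Under heat it was -0.11 and -0.19, under radiation -0.08 and -0.07, and under peroxide -0.11 and -0.08. Of the 18 calls, 2 were of mitochondria-specific members, mRpL55 under heat and mRpS30 under radiation, and all 11 mitochondria-specific small subunit genes lay below 0 under heat, between -0.44 and -0.017.

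The members whose probe sets had the highest and lowest mean signal in each subunit show the range of precision, since probe sets of different genes do not rank their abundance. mRpL28, the highest of the large subunit, had 1407, 1580.2, 1391 and 1105 in Old flies, against 1237, 1637 and 1732 (lowest, median and highest) in Young controls, a change of -0.20 (SE 0.14). mRpS7, the highest of the small subunit, had 1869, 2404, 2320.2 and 1727 in Old flies, against 2509, 2665 and 2773 in Young controls, without overlap. Under radiation mRpS7 was at -0.28 (adjusted p = 0.033) and in Sugar flies at 0.16 (adjusted p = 0.34).

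Of the dimmest, mRpL4 had 88.5, 101, 66.5 and 91.4 in Old flies, against 74.3, 101 and 252 in Young controls (-0.29, SE 0.26). mRpS18B had 100.3, 158, 39.2 and 72.8 in Old flies, against 34.6, 195 and 441 in Young controls, and its SEs of 0.38 to 0.50 over the 6 comparisons would let only large changes pass. mRpL11 and mRpL12 had a second, dimmer probe set each. For mRpL12 the brighter one gave -0.46 (SE 0.13) under radiation and the dimmer one -0.24 (SE 0.50), and in Old flies they gave -0.11 (SE 0.12) and 0.53 (SE 0.45), so the dimmer one settled neither direction.

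Proteins of the same machine that carry other names were measured for 3 genes. tko, the counterpart of bacterial S12 whose mutation makes flies bang-sensitive, rose under radiation (0.94, SE 0.19, adjusted p = 0.00035), while bonsai, the counterpart of S15, was at -0.36 (SE 0.12, adjusted p = 0.024) and CRIF at -0.61 (SE 0.20, adjusted p = 0.025), neither called. In the other 5 comparisons none of the 3 was called. Under radiation tko was thus the only gene of the machine called up, beside 7 mRpL and mRpS genes called down.

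Of 10 mitochondrial translation factors, all lay below 0 in Old flies with a median of -0.49, and 1 was called, the elongation factor mEFTs (-0.60, SE 0.10, adjusted p = 3.4e-05). mEFTu1, the elongation factor that brings charged transfer RNA, fell under radiation (-0.61, SE 0.15, adjusted p = 0.0027) and peroxide (-0.71, SE 0.15, adjusted p = 0.00040). The initiation factor mIF2 was called down under heat (-0.67, SE 0.29, adjusted p = 0.11) and peroxide (-0.80, SE 0.27, adjusted p = 0.023), and the release factor mRF1 was called up in Sugar flies (0.94, SE 0.36, adjusted p = 0.096). No other factor was called in any comparison. Calls down made up 10% of the factors in Old, heat and radiation, beside 9.40%, 8.06% and 8.23% of all genes. They made up 20% under peroxide, beside 9.75%, and the call up in Sugar flies was 10%, beside 2.89%.

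Of 18 mitochondrial aminoacyl-tRNA synthetases, which charge transfer RNAs for this ribosome, TrpRS-m (-0.85, SE 0.12, adjusted p = 1.4e-06) and CysRS-m (-0.63, SE 0.12, adjusted p = 0.00021) fell in Old flies and SerRS-m (-0.64, SE 0.18, adjusted p = 0.0075) fell under heat. Of 8 genes for assembly of the mitochondrial ribosome and for mitochondrial RNA, mtTFB2, a factor of mitochondrial transcription, rose under radiation (0.77, SE 0.20, adjusted p = 0.0041) and no other was called. None of 5 genes of mitochondrial DNA expression was called. The synthetase calls were 11.1% of that list in Old flies and 5.56% under heat, beside 9.40% and 8.06% of all genes called down. The call of mtTFB2 was 12.5% of its list, beside 7.80% of all genes called up under radiation.

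The products of this ribosome work beside nuclear-encoded subunits of the respiratory chain, of which 66 were measured with the ATP synthase. In Old flies 24 of the 66 were called down and none up, with a median of -0.53 and 65 below 0, where the 64 mitochondrial ribosomal protein genes had no call and a median of -0.13. The 24 were 36.4% of the list, beside 9.40% of all genes called down. Under radiation 16 were called down (median -0.37), 24.2% beside 8.23% of all genes. Under peroxide 4 were called down and 5 up (median -0.08), 6.06% and 7.58% beside 9.75% and 8.95% of all genes. Over the 49 whose symbols do not end in L, as those of many paralogues do, there were 17 called down in Old flies (median -0.53), 13 under radiation (median -0.42), and 4 down and 1 up under peroxide (median -0.16). Of 16 genes of the import machinery of the inner and outer membranes (TIM and TOM), 6 were called down in Old flies (37.5%) with a median of -0.51. Of 37 cytosolic ribosomal proteins 2 were called down in Old flies (5.41%), the testis-biased paralogues RpL22-like (-1.34, SE 0.24, adjusted p = 8.1e-05) and RpS10a (-0.69, SE 0.12, adjusted p = 7.7e-05), and the median was 0.16. The difference between these lists and the mitochondrial ribosomal protein genes was not tested.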

How the data were processed

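RNA of whole male flies was measured on 35 Affymetrix DrosGenome1 arrays in 8 groups, taken from the labels. The authors deposited linear signal intensities per probe set, and the submitters' processing notes name MAS5, which scales each array to a common trimmed mean. The study's methods describe a multi-chip model followed by limma, so the deposited intensities are not the values that model would give. The Young controls, Old and Hyperoxia arrays were first made for an earlier study of the same laboratory, and the methods state that 1 heat array was left out for quality.

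Of 14010 probe sets, 44 controls were left out, and 13966 were tested. Symbols came from the platform annotation, updated through the reference gene table (12394 probe sets updated, 49 not matched), and 12443 probe sets named 1 gene, 327 several and 1196 none. A gene with several probe sets was represented by that with the highest mean signal, which gave 10844 genes. The log2 intensities were quantile normalized, a pseudocount of 34.09 (the 10th percentile of all signals) was added, and the 8 group means were fitted in R 4.3.3 with limma 3.58.1 (lmFit and eBayes, 27 residual degrees of freedom). Calls used decideTests with the nested F method at a false discovery rate of 1% and a change of at least 1.5-fold, after the study's methods. Adjusted p-values are by Benjamini-Hochberg within a comparison, and differences outside the 6 comparisons with controls were called at an adjusted p under 0.01. The pipeline was tested on simulated data. The number of arrays limits the precision.

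The members and all gene lists were chosen with earlier results of these data known. Array values are given for up to 4 called members per comparison and direction, the members with the highest and lowest mean signal in each subunit and those nearest to 0 in Old flies. mRpS18A, mRpS29, mRpS30 and mRpL43 were added after their values were seen. Equal replicate numbers did not pair the arrays, as the correlation of their residuals lay between -0.0909 and 0.0748 over 13 pairs of groups.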

Additional observations from a re-analysis of the deposited data

Results flagged for a closer look

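For the 16 members named by the rule, the groups of 4 or 6 arrays were searched for a single array far from the others, on the scale of log2(signal + 34.09). Of 112 such groups, 10 held one. Chance gives about 1 in 20 groups.

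In mRpS6, 3 groups held one. Old replicate 4 stood at 9.73, against 10.33 to 10.44 on the other Old arrays. Hyperoxia replicate 1 stood at 8.96, against 9.54 to 9.87, and it is the array without which the call of mRpS6 under hyperoxia was lost. Ionizing radiation replicate 1, the array with the high actin ratio, stood at 9.84, against 9.32 to 9.40.

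The Young controls held 3. Replicate 3 was low in mRpL21 at 9.13, against 9.35 to 9.47, and high in mRpL33 at 11.19, against 11.02 to 11.07. Replicate 5 was high in the dim mRpL4 at 8.16, against 6.76 to 7.26.

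The other 4 were in separate genes and groups. Old replicate 2, with the actin ratio of 283, was high in mRpL13 at 10.95, against 10.63 to 10.68. Hyperoxia replicate 2 was high in the dim mRpS18B at 8.48, against 6.25 to 6.95. Hydrogen peroxide replicate 4 was high in mRpS7 at 11.58, against 11.39 to 11.42, and Sugar replicate 3 was low in mRpL46 at 9.59, against 9.75 to 9.77.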

How the results depend on the processing

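No call turned its direction under any alternative run. Scaling to a common trimmed mean gave 1 member called down in Old flies (mRpS18A), 2 called down under heat and 1 called up under peroxide (mRpS9). Scaling to a common median gave 2 called down under heat, 4 called down under radiation and 2 called up under peroxide (mRpL35 and mRpS9), and there the peroxide medians were -0.079 over the large and 0.078 over the small subunit genes. The pseudocount at the 25th percentile gave 1 down and 0 up under heat. With only the 2 groups compared in the fit, heat gave 0 down and 0 up, peroxide 1 down and Sugar 1 up (mRpL33). Peroxide also gave 1 down (mRpL20) with the pseudocount at the 2nd percentile, with only the arrays of the same study, and without the Sugar arrays, an alternative chosen after seeing the data. With the replicate block by title number, Old gave 2 down (mRpL23 and mRpS18A), Hyperoxia 0 and peroxide 1, and with the replicate block by the number in the description Hyperoxia gave 0. With 1 array left out, calls down were 0 to 1 in Old, 0 to 1 in Hyperoxia, 3 to 8 under heat, 5 to 7 under radiation and 1 to 2 under peroxide. Calls up were 0 to 1 in Old, 0 to 1 under heat, 0 to 2 under peroxide and 2 to 3 in Sugar. The small subunit median under peroxide lay between -0.057 and 0.019, and the large subunit median in Sugar flies between 0.0032 and 0.069. The cause of these shifts was not tested. Dim probe sets such as those of mRpL4 and mRpS18B could have shown only large changes.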
